A study of Glycine max with 6 samples.

Results

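In soybean leaves, 75 of 66195 probes were lower under drought by a log2 difference of 4 or more, that is, at least 16-fold. They were chosen on the mean of 3 drought-stressed plants minus the mean of 3 well-watered plants, with the further condition that every drought-stressed plant lay below every well-watered plant. Both conditions were met by 80 probes (0.121% of all probes), and 5 gene IDs among them were left out of this account, 3 of them cytokinin oxidase genes. Since these differences chose the members, their values are a description and carry no test. The samples were leaves of the fourth trifoliate of the cultivar Williams 82, with 1 array for each plant. They are labelled by the V6 vegetative stage, at which water was first withheld. The paper describes the plants as starting to bloom by the time of collection. Well-watered plants 14, 15 and 16 were watered as usual, while drought-stressed plants 1, 2 and 4 went 6 days without water, by which time the soil moisture was down to 5%. The treatment protocol gives the start as 28 days after sowing and the growth protocol gives 35 days for the same stage. Plants shared pots, 3 to a pot, and it is not stated which plants shared one, so p-values measure the spread between these plants.

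The leaf of a plant that runs out of water closes its stomata, slows its growth and its photosynthesis, and changes the transcripts of many genes through abscisic acid (ABA) and through signals that do not need this hormone. Transcripts known to drop in such leaves include those that serve growth, light harvesting and hormone turnover. The array carries a probe set for nearly every gene model of the first soybean genome annotation, Glyma1. A Glyma1 ID gives the chromosome in its first digits and the place along the chromosome in its last digits, so the IDs order the models although the files give no coordinates. Soybean is an old polyploid with many duplicated genes, and copies of a family often sit in rows.

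The values are log2 signals relative to each probe's own median over the 6 arrays. They show how plants differ at 1 probe and not how strongly a gene is expressed, so levels were not compared between genes and the leaf could not be checked by marker levels. The scale also ties both groups together: where the groups do not overlap, the highest drought-stressed value is the lowest well-watered value with its sign turned. Over all probes the array medians lay between -0.097 and 0.13. Over the 75 members they were 2.33, 2.20 and 2.36 in well-watered plants 14, 15 and 16, and -2.13, -2.39 and -2.58 in drought-stressed plants 1, 2 and 4.

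The median difference among the members was -4.54, or 23.3-fold lower. Of the 75 members, 51 were lower by 16-fold to 32-fold, 18 by 32-fold to 64-fold and 6 by more than 64-fold. The distance between the lowest well-watered plant and the highest drought-stressed plant, called the gap here, had a median of 3.91 log2 and was at least 4 for 32 members. It was under 3 for 6 members and under 2 for 1. No member had a second probe, and none shared its 6 values with another probe. By comparison, 16.9% of all probes had every drought-stressed plant below every well-watered plant at any distance.

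**Figure D1:**
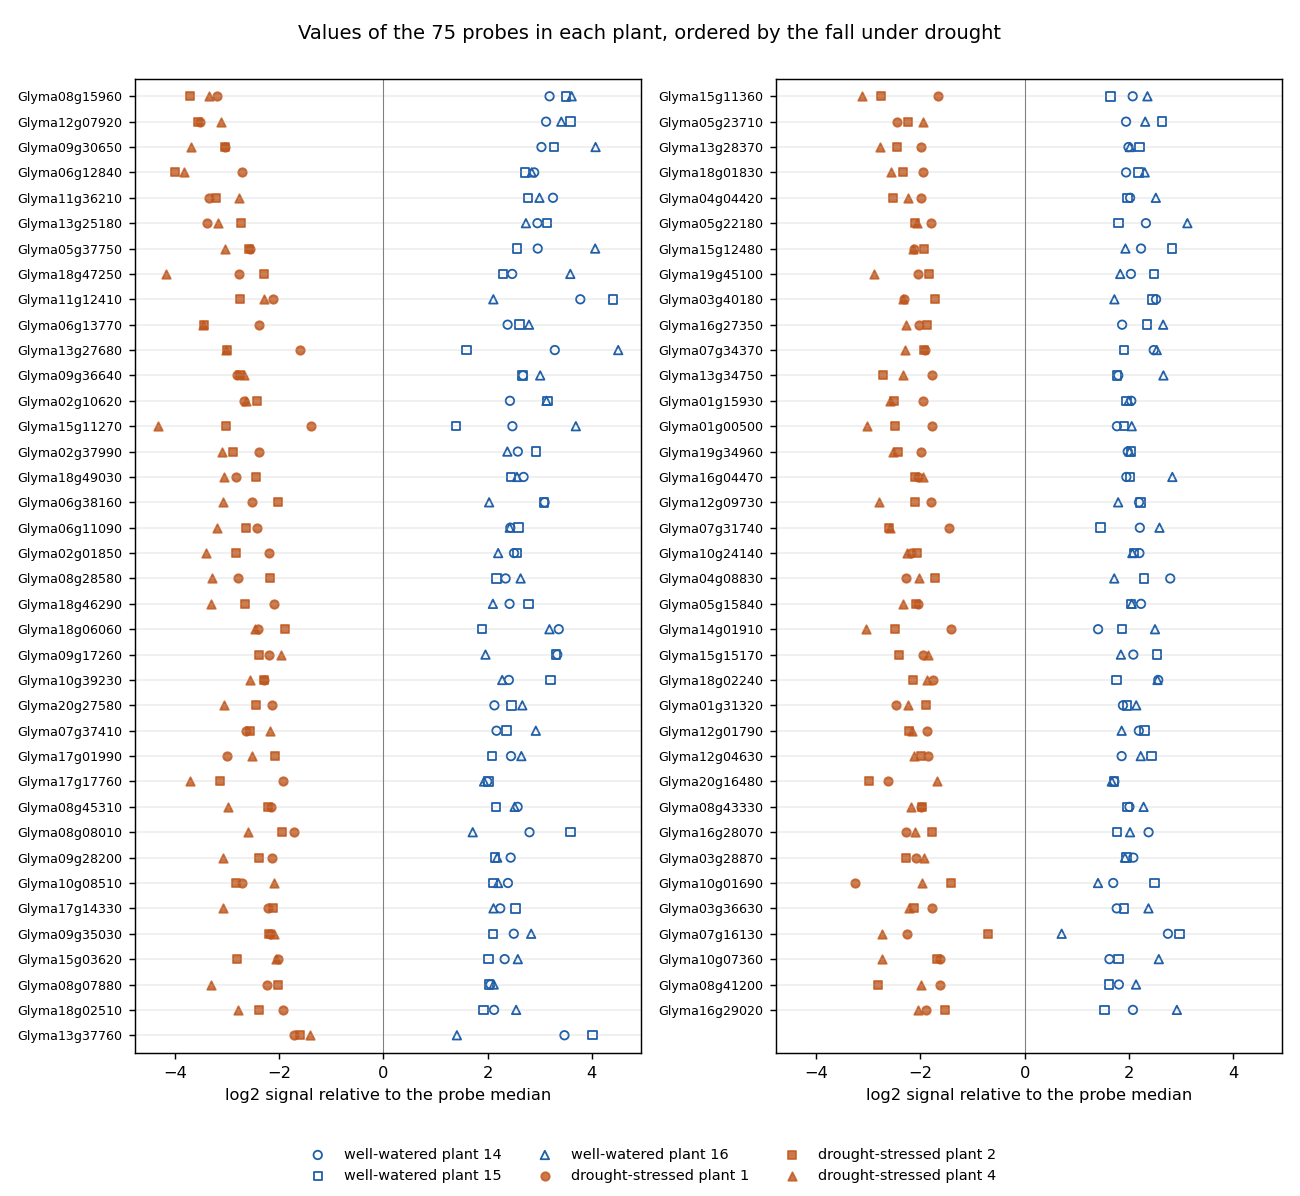
Each row is 1 of the 75 probes, ordered by its fall under drought, and the horizontal axis is the log2 signal minus the median of that probe over the 6 arrays. Open blue symbols are the 3 well-watered plants and filled orange symbols the 3 drought-stressed plants. The groups lie apart in every row, by 1.42 log2 at the least in Glyma07g16130 and by 6.38 at the most in Glyma08g15960.

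Glyma08g15960 had the largest difference. Its log2 values were 3.19, 3.50 and 3.61 in well-watered plants 14, 15 and 16, and -3.19, -3.70 and -3.35 in drought-stressed plants 1, 2 and 4. The plants of each group lay close together and the groups were far apart, with a difference of -6.85, or 115-fold. Glyma12g07920 followed at -6.78, with 3.12, 3.59 and 3.42 in the watered plants and -3.53, -3.56 and -3.12 in the stressed plants. It was as even within the groups as the first gene. Glyma09g30650 stood at -6.72, with 3.03, 3.28 and 4.07 against -3.03, -3.04 and -3.69. Here well-watered plant 16 was above its group and drought-stressed plant 4 below its group. These 3 gene models have no description in the sources used here. With quantile normalization the first and second changed places, at -7.48 for Glyma08g15960 and -7.53 for Glyma12g07920.

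The next 3 members were also lower by more than 64-fold. Glyma06g12840 had 2.90, 2.72 and 2.85 in the watered plants and -2.72, -4.0 and -3.83 in the stressed plants, a difference of -6.34. Its watered plants were nearly level, while drought-stressed plant 1 stayed more than 1 log2 above plants 2 and 4. Glyma11g36210 had 3.26, 2.78 and 3.00 against -3.35, -3.21 and -2.78, a difference of -6.12. Glyma13g25180 had 2.96, 3.14 and 2.74 against -3.39, -2.74 and -3.17, a difference of -6.04. In both of these genes each group was compact, and the lowest stressed plant was plant 1.

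Glyma05g37750, Glyma18g47250, Glyma11g12410 and Glyma06g13770 completed the 10 largest differences, at -5.92, -5.87, -5.82 and -5.70. In Glyma05g37750 well-watered plant 16 was far above the others, with 2.96, 2.57 and 4.07 against -2.57, -2.57 and -3.04. In Glyma18g47250 the same watered plant was highest and drought-stressed plant 4 was lowest, with 2.47, 2.29 and 3.59 against -2.78, -2.29 and -4.18. Glyma11g12410 had the opposite pattern among the watered plants, with plant 16 lowest, at 3.78, 4.41 and 2.11 against -2.11, -2.75 and -2.29. In Glyma06g13770 the watered plants were close, at 2.39, 2.62 and 2.80, and the stressed plants split into plant 1 at -2.39 and plants 2 and 4 at -3.45 and -3.47.

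The threshold cut through a continuous range of values. Just inside it were Glyma16g29020 and Glyma08g41200, both at -4.0, and Glyma10g07360 at -4.02. Just outside were Glyma09g15240, Glyma18g51320 and Glyma16g25250, each at -3.99. Glyma16g29020 had 2.08, 1.53 and 2.92 against -1.90, -1.53 and -2.04, and Glyma09g15240 had 2.02, 1.61 and 2.24 against -1.61, -2.32 and -2.17. These are like values on either side of the line. A threshold of -3.5 took 150 probes and one of -4.5 took 40.

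Only 4 of the 75 members had a name or a row in the description tables used here, of which the largest holds 1849 rows, all on chromosome 1, and 3 of these 4 lie there. The paper assigned a known function to most of the genes it could annotate. A missing description here is thus a limit of the sources used. Glyma08g08010 is GmNAC057, a member of the NAC family of plant transcription factors, which is known for regulators of stress responses, organ boundaries and leaf senescence. Its log2 values were 2.81, 3.59 and 1.72 in well-watered plants 14, 15 and 16, and -1.72, -1.94 and -2.60 in drought-stressed plants 1, 2 and 4. The watered plants ranged over 1.87 log2 units without reaching the stressed plants, and the difference was -4.79, or 27.7-fold. A call of lower or higher means here that the groups differed by at least 2-fold with a limma p, adjusted over all probes, below 0.05, which held for 5.14% of probes in the lower direction and 4.33% in the higher direction. Of the 10 models nearest to GmNAC057, Glyma08g07970 was called lower, at -1.04, and the others were not called.

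Glyma01g31320 has as its best Arabidopsis match AT2G38310, which encodes PYL4, a receptor of the PYR/PYL family. In Arabidopsis these receptors bind ABA and then block the PP2C phosphatases that hold the pathway off. The values were 1.89, 1.96 and 2.14 in the watered plants and -2.48, -1.89 and -2.25 in the stressed plants. Both groups were compact, and the difference was -4.20, or 18.4-fold. At 2 models from it, Glyma01g31300, whose best match AT5G01600 encodes a ferritin, an iron storage protein, rose by 2.24 in limma (standard error 0.35, adjusted p = 0.00138). That call was lost under the methods' t-test, at an adjusted p of 0.0826.

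Glyma01g15930 is matched to AT4G00050, UNE10, a transcription factor of the basic helix-loop-helix family. Its watered plants were at 2.05, 1.95 and 2.00 and its stressed plants at -1.95, -2.50 and -2.58, a difference of -4.35. The watered plants were almost level, with an SD of 0.05, and drought-stressed plant 1 was the least low. It was the 1 member among 162 measured genes on the keyword list for transcription factors. Of these 162 genes, 13 (8.02%) were called lower and 7 (4.32%) higher, beside 5.14% and 4.33% of all probes, with a median log2 fold change of -0.08 beside -0.05 over all probes. The lists cover chromosome 1 alone, and no other list held a member. Of 87 kinase genes 9 were lower and 2 higher, and of 46 transporter genes 3 were lower and 2 higher. The marker lists were too short to describe the leaf, with 1 photosynthesis gene, which was lower, 8 genes of nodule and root, of which 2 were lower, and 5 of the flower, of which 0 were called. Each of the remaining lists had 1 to 19 measured genes, of which 0 to 2 were lower and 0 to 2 higher.

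Glyma01g00500 has a row in the table without a description. It had 1.77, 1.91 and 2.06 in the watered plants and -1.77, -2.49 and -3.02 in the stressed plants, a difference of -4.34. The genes on both sides of it were not called. Glyma01g00490, matched to the kinase gene AT2G24370, was at 0.18, and Glyma01g00510, matched to AT1G19220, the auxin response factor ARF19, was at -0.18.

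The median SD among plants of a group was larger for the members than for all probes. Over the 75 members the median SD was 0.307 log2 among well-watered plants and 0.342 among drought-stressed plants. Over all 66195 probes it was 0.240 and 0.177. The condition that the groups be apart removed no probe at this threshold. The members were still chosen on these same values, so the figures carry no test. The 3326 other probes called lower had medians of 0.287 and 0.246. The 152 probes that rose at least 16-fold under drought had 0.376 and 0.323, so a spread above that of all probes was not particular to the members.

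The larger spread lay with the drought-stressed plants for 42 of the 75 members, or 56%. That share was 36% over all probes, 43.4% over the other probes called lower and 42.8% over the 152 probes that were higher under drought by at least 16-fold. Over all probes the array medians lay further apart among the watered plants (-0.10 to 0.13) than among the stressed plants (-0.03 to -0.004). A range of at least 1 log2 among the stressed plants was found for 21 members (28%), 3.79% of all probes, 10% of the other probes called lower and 21.7% of the 152 rising probes. Among the watered plants it was found for 18 members (24%), 7.74% of all probes, 16.7% of the other lower probes and 27% of the rising probes. A range of 1 log2 is a 2-fold difference between plants under the same treatment.

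**Figure D2:**
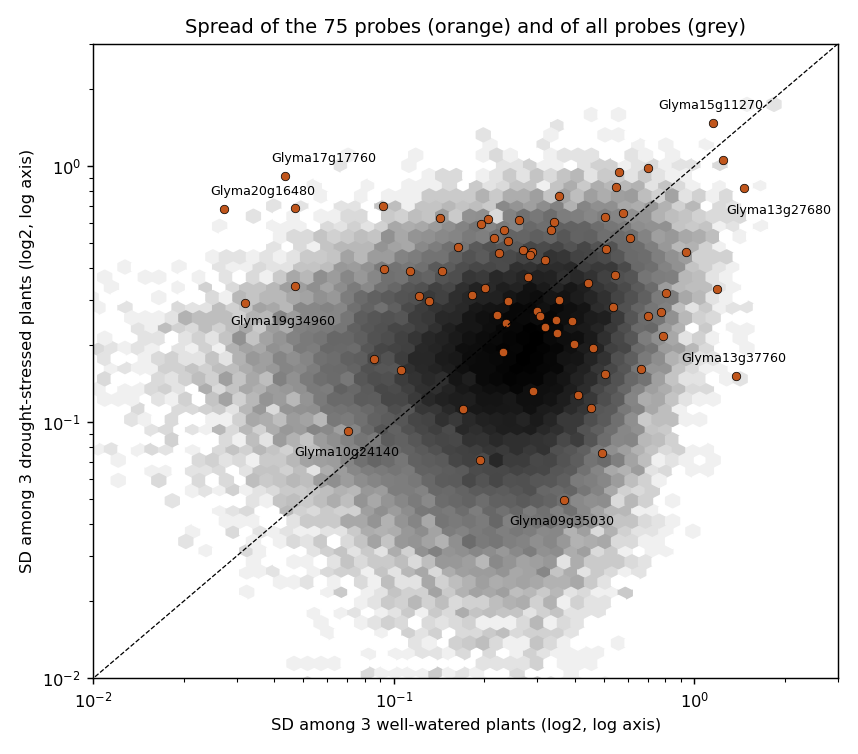
Each orange point is 1 of the 75 probes, set by its SD among the 3 well-watered plants (horizontal) and among the 3 drought-stressed plants (vertical), on log axes in log2 units. Grey cells are all 66195 probes, darker where more lie, cut off at the lower axis limits. The dashed line marks equal SDs, and 42 of the 75 points lie above it.

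The widest watered groups belonged to Glyma13g27680, Glyma13g37760 and Glyma07g16130, with SDs of 1.46, 1.37 and 1.25. Glyma13g27680 had 3.29, 1.60 and 4.51 in plants 14, 15 and 16, with plant 15 low and plant 16 high, against -1.60, -3.01 and -3.03. Glyma13g37760 had 3.48, 4.02 and 1.41, with plant 16 low, against -1.71, -1.60 and -1.41, so that its spread was almost all among the watered plants. Glyma07g16130 came nearest to an overlap. It had 2.75, 2.97 and 0.71 against -2.25, -0.71 and -2.74, with watered plant 16 and stressed plant 2 only 1.42 log2 apart, a 2.68-fold difference between the closest plants beside 16.5-fold between the means.

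Glyma15g11270 had the widest stressed group, with an SD of 1.47. It had 2.48, 1.39 and 3.69 in the watered plants and -1.39, -3.01 and -4.33 in the stressed plants, a 7.65-fold range among the stressed plants alone. Glyma07g16130 and Glyma18g47250 followed, with drought SDs of 1.06 and 0.98. At the other end, Glyma20g16480, Glyma19g34960 and Glyma17g17760 had watered plants that were level, with SDs of 0.03, 0.03 and 0.04. The first and the last of these were wide apart under drought. Glyma20g16480 had 1.72, 1.72 and 1.67 against -2.62, -2.99 and -1.67, and Glyma17g17760 had 1.99, 2.02 and 1.93 against -1.93, -3.14 and -3.72. The smallest drought SDs were those of Glyma09g35030, Glyma09g36640 and Glyma16g04470, at 0.05, 0.07 and 0.08. Glyma09g35030 had 2.50, 2.10 and 2.84 against -2.17, -2.20 and -2.10.

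The order of the stressed plants was uneven over the members. Drought-stressed plant 4 was the lowest plant for 44 members (58.7%), plant 2 for 19 and plant 1 for 12. Over all probes plant 4 was lowest for 36.8%, and over the other probes called lower for 53.4%. Plant 1 was the highest of the stressed plants for 40 members (53.3%), beside 34.3% of all probes and 38% of the other lower probes. The full order of plant 1 over plant 2 over plant 4 was held by 29 members (38.7%), by 19.5% of all probes and by 27.2% of the other lower probes. With the same IDs left out, 75 probes met both conditions. There were 72 without plant 4, 85 without plant 2 and 88 without plant 1. Without watered plants 14, 15 and 16 in turn there were 78, 84 and 80.

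Among the watered plants, plant 16 was highest for 33 members and lowest for 25, plant 15 highest for 24 and lowest for 31, and plant 14 highest for 18 and lowest for 19. Over all probes plant 14 was highest for 49.7% and plant 16 lowest for 55.9%. The members did not follow this lean, since 9.33% of them had the order 14 over 15 over 16, which 35.4% of all probes had. The other probes called lower had this order in 10.6%. It is also the order of the array medians over all probes, 0.13, 0.03 and -0.10 in plants 14, 15 and 16. The part of such shifts between arrays was not tested. The most frequent order among the members was 16 over 14 over 15, in 20 of them (26.7%), beside 12% of all probes and 27.9% of the other lower probes. Plant 16 was highest for 44% of the members, 21.2% of all probes and 45.9% of the other lower probes.

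All 75 members lay on the 20 chromosomes, and none was among the 428 measured models on unplaced scaffolds. Chromosomes held 1 to 7 of them, with 7 each on chromosomes 8 and 18 and 1, Glyma14g01910, on chromosome 14. Relative to the number of measured models this was 1.14 per 1000 over the genome, from 0.350 on chromosome 14 to 1.83 on chromosome 18. Chromosome 14 was also lowest in all probes called lower, at 40.9 per 1000 models, while the highest there was chromosome 11 at 58.2, which held 2 members. With the model order of each chromosome cut into 4 equal parts, 18, 22, 17 and 18 members lay in the parts from start to end. All models called lower were split 27.5%, 21.9%, 22.9% and 27.7% over the same parts. Glyma01g00500 sat at 0.6% of the model order of its chromosome and Glyma19g45100 at 99.1%.

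**Figure D3:**
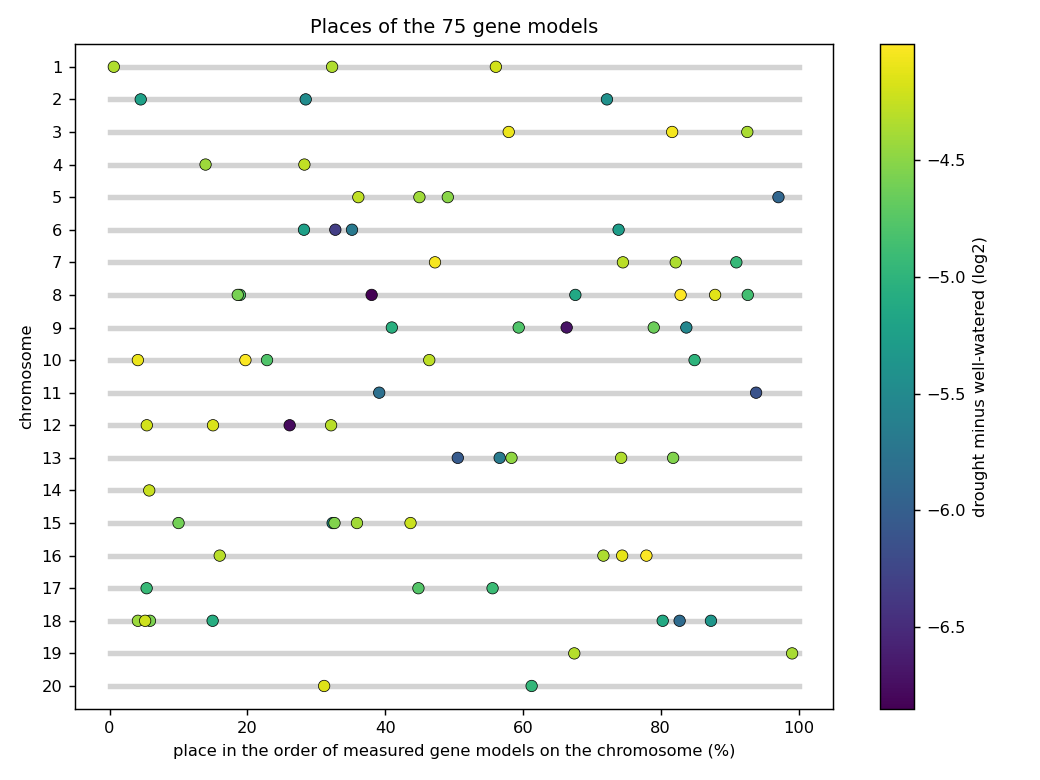
Each point is 1 of the 75 gene models, placed by chromosome (vertical axis) and by its place in the order of measured models on that chromosome, as a percentage (horizontal axis). The colour gives the log2 difference of drought-stressed minus well-watered plants. The points are spread over all 20 chromosomes, with 1 on chromosome 14 and 7 on chromosomes 8 and 18.

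No 2 members were adjacent, and the median distance between neighbouring members on a chromosome was 333 models over 55 such pairs. There were 1.14 members per 1000 models, and the distances were not set beside those of other models, so they are a description. Glyma15g11270 and Glyma15g11360, 9 models apart, were the only pair of members within 10 models. Glyma03g28910, among the gene IDs left out, lay closer than this to the member Glyma03g28870, as described below. Glyma15g11360 had 2.08, 1.65 and 2.36 in the watered plants and -1.65, -2.76 and -3.12 in the stressed plants, a difference of -4.54. Its order of plants was that of Glyma15g11270 in both groups: watered plant 16 over 14 over 15, and stressed plant 1 over 2 over 4. These were also the most frequent orders among all members, in 26.7% and 38.7% of them. The spread of Glyma15g11360 was smaller than that of Glyma15g11270, with SDs of 0.35 and 0.76 beside 1.15 and 1.47. The next closest pairs were Glyma08g07880 and GmNAC057, 13 models apart, and Glyma18g01830, Glyma18g02240 and Glyma18g02510, at 40 and 27 models.

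The models next to the members were not used in choosing them, so the limma test was read for these. There were 150 adjacent models, 1 on each side of each member. Of these, 15 (10%) were called lower, 5 (3.33%) higher and 130 were not called, beside 5.14% and 4.33% of all probes. The models next to the other probes called lower gave a like share, 621 of 6355 (9.77%). Taking 3 models on each side, 42 of 450 (9.33%) were lower and 18 (4%) higher, and from 4 to 10 models away 60 of 1030 (5.83%) were lower and 39 (3.79%) higher. Thus the share of lower calls close to the members was above that of all probes. For adjacent models it was close to that found next to the other probes called lower. At 2 and 3 models away it was 8.67% and 9.33% around the members, beside 7.28% and 6.87% around the other probes called lower. No difference between these shares was tested. With the methods' t-test 9 of the 150 adjacent models were lower, beside 3.02% of all probes lower and 2.73% higher.

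**Figure D4:**
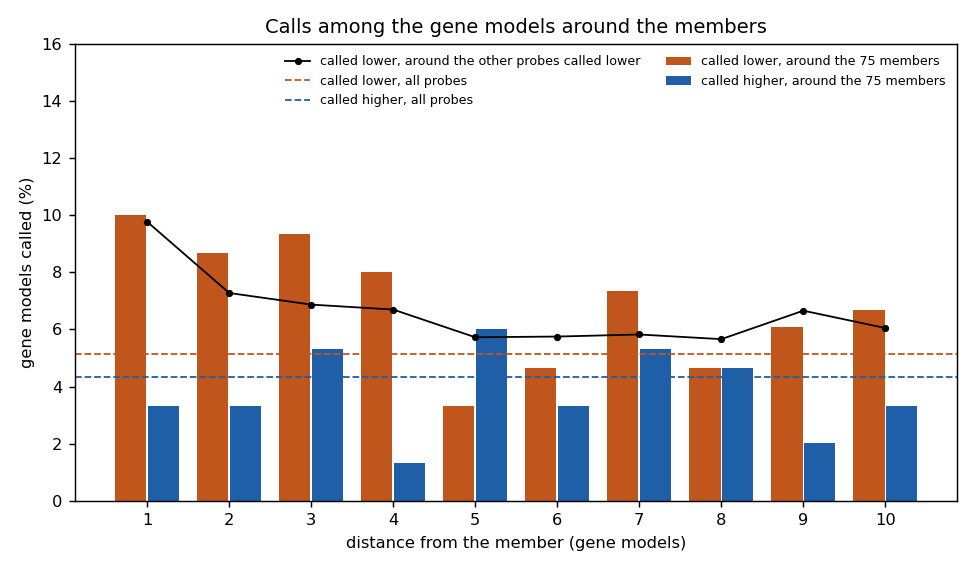
Bars give the percentage of gene models called lower (orange) or higher (blue) at each distance from the 75 members, in models counted on both sides. The black line gives the percentage called lower at the same distance from the other probes called lower, and dashed lines give the percentages over all probes, 5.14% lower and 4.33% higher. At distance 1 the orange bar is at 10% and the black line at 9.77%.

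The adjacent models leaned slightly to lower values as a whole. Their median log2 fold change was -0.15 beside -0.05 over all probes, and 101 of 150 (67.3%) were below 0, beside 56.8% of all probes. The median standard error of a single adjacent model was 0.20. For 57 members neither adjacent model was called. Glyma08g15960, with the largest difference of all, was 1 of them: its 10 nearest models ran from -0.62 to 0.06 and none was called.

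An adjacent model was called lower for 14 members. The largest of these changes was that of Glyma08g28570, beside Glyma08g28580, at -3.70 (standard error 0.24, adjusted p = 5.28e-06 from limma). It had 1.64, 1.54 and 1.54 in the watered plants and -1.54, -2.35 and -2.48 in the stressed plants, where Glyma08g28580 had 2.35, 2.18 and 2.63 against -2.78, -2.18 and -3.30. Both models were lowest in drought-stressed plant 4, but plant 1 was highest in one and plant 2 in the other. Glyma18g49020, beside Glyma18g49030, was at -3.23 (standard error 0.19, adjusted p = 2.84e-06 from limma), and Glyma15g15160, beside Glyma15g15170, at -2.90 (standard error 0.17, adjusted p = 2.47e-06). Glyma09g30660, beside Glyma09g30650 of the 3 largest differences, was at -3.39 (standard error 0.25, adjusted p = 1.18e-05). Its values were 1.46, 1.54 and 2.44 against -1.46, -1.69 and -1.57, with well-watered plant 16 above its group as in Glyma09g30650. Plant 16 was the highest watered plant for 44% of the members.

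Glyma17g14320, beside Glyma17g14330, was at -2.34 (adjusted p = 3.07e-05 from limma), and Glyma17g17750, beside Glyma17g17760, at -1.99 (adjusted p = 8.77e-05). The remaining 4 of the 10 largest adjacent changes passed limma and missed the threshold under the methods' t-test. These were Glyma02g01840 beside Glyma02g01850 at -3.42 (adjusted p = 0.000247 from limma, 0.0515 by the t-test), Glyma13g25190 beside Glyma13g25180 at -2.94 (0.000305 and 0.0524), Glyma13g37750 beside Glyma13g37760 at -2.72 (0.00549 and 0.146) and Glyma04g08820 beside Glyma04g08830 at -1.96 (0.00153 and 0.0803). Glyma13g37750 had 2.60, 3.10 and 0.51 in the watered plants and -0.51, -0.91 and -0.52 in the stressed plants. Watered plant 16 was thus far below the other watered plants in this model and in its neighbour Glyma13g37760 alike, whose values are given above.

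Of the 5 adjacent models called higher, Glyma16g29030, beside Glyma16g29020, had the largest change, a rise of 1.87 in limma (standard error 0.23, adjusted p = 0.000296). It had -0.65, -0.81 and -1.43 in the watered plants and 1.05, 0.65 and 1.04 in the stressed plants. The other 4 were at 1.00 to 1.41, and none of these calls held under every alternative. The methods' t-test lost Glyma19g34970 (adjusted p = 0.175), Glyma08g07890 (0.109) and Glyma13g37770 (0.0515), and Glyma02g10630 was under 2-fold with array weights and without well-watered plant 16 or drought-stressed plant 4. Further off, Glyma20g27610, at 3 models from Glyma20g27580, rose by 4.84 in limma (standard error 0.17, adjusted p = 1.68e-07), while Glyma20g27600 between them was called lower at -1.96, a call that the t-test lost (adjusted p = 0.0529). The member itself had 2.13, 2.46 and 2.67 against -2.13, -2.45 and -3.06. The changes of the models at both ends of this stretch thus had opposite signs. These models, and those in the next paragraphs that were not adjacent, were chosen after their values were seen.

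At least 2 models called lower lay within 3 places of 9 members (12%), on both sides of 5 members and on 1 side of 4. Around the other models called lower this held for 312 of 3299 (9.46%), and no difference was tested. With the methods' t-test it held for 5 members, Glyma08g45310, Glyma09g35030, Glyma13g28370, Glyma15g15170 and Glyma18g49030. Glyma15g15170, at -4.23, ended a run in which every model deepened toward it: Glyma15g15130 at -1.19, Glyma15g15140 at -1.23, Glyma15g15150 at -2.21 and Glyma15g15160 at -2.90. The t-test lost the call of Glyma15g15140 (adjusted p = 0.0747). The model on the other side, Glyma15g15180, was at -0.68 and was not called. Glyma08g45310, at -4.87, had Glyma08g45280 at -3.70 (adjusted p = 6.27e-05 from limma), Glyma08g45290 at -3.16 (adjusted p = 7.33e-06) and Glyma08g45320 at -1.64 around it, with Glyma08g45300 at -0.66 not called. The t-test lost Glyma08g45320 (adjusted p = 0.104). Glyma18g49030, at -5.35, followed Glyma18g49000 at -2.10, Glyma18g49010 at -0.02 and Glyma18g49020 at -3.23. Glyma17g17760, at -4.91, was the only member with both adjacent models called lower, Glyma17g17750 at -1.99 and Glyma17g17770 at -1.09. The latter was lost under the t-test (adjusted p = 0.115) and was short of a 2-fold change without drought-stressed plant 4, at -0.82. None of these models has a description in the sources used here.

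**Figure D5:**
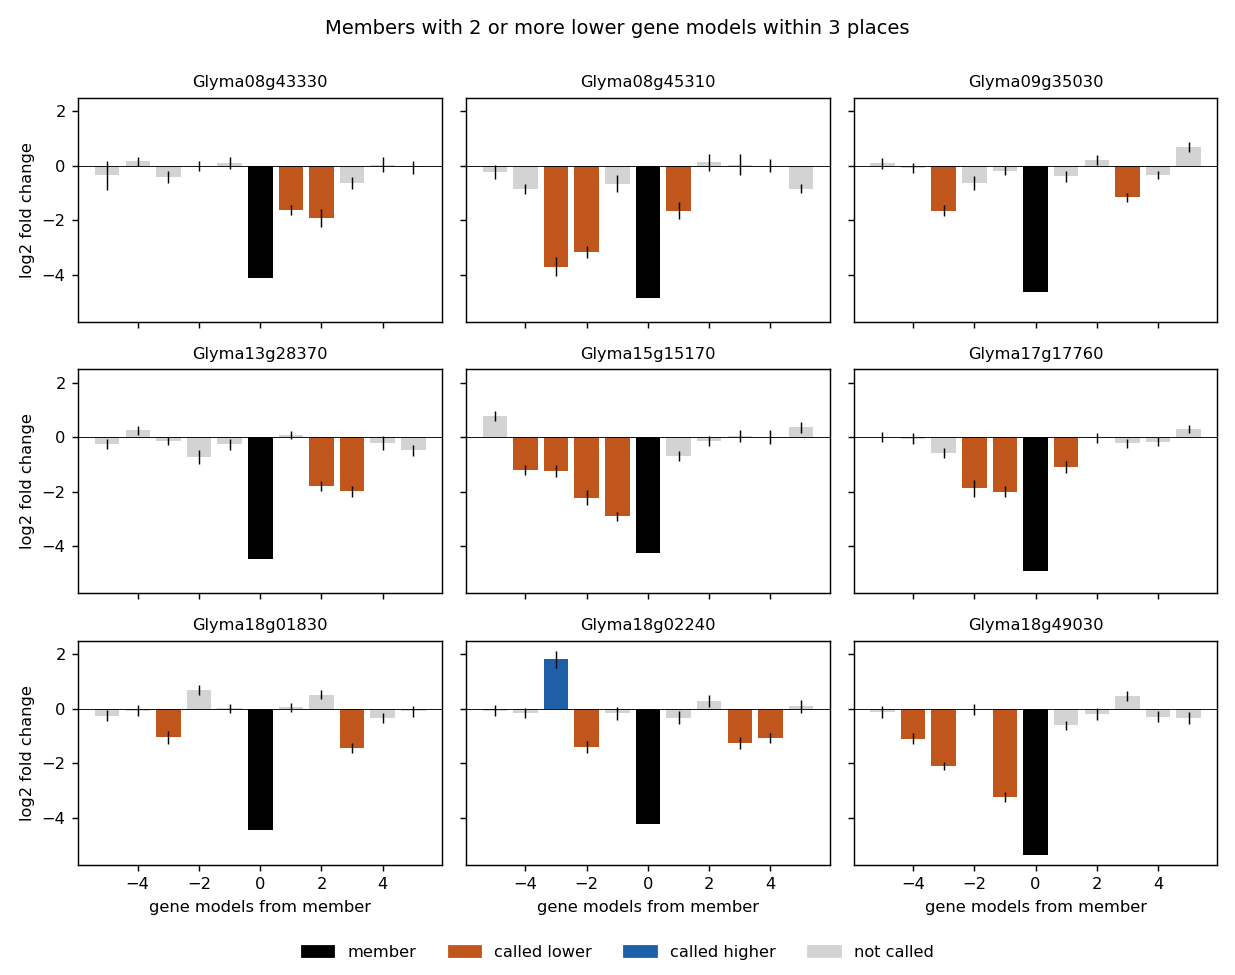
Each panel shows 1 of the 9 members with at least 2 models called lower within 3 places. The horizontal axis is the place in the model order relative to the member and the vertical axis the log2 fold change under drought, with error bars of 1 standard error. Black marks the member, drawn without an error bar, orange models called lower, blue models called higher and grey models not called. In Glyma15g15170 the bars deepen from -1.19 to -4.23 over 5 adjacent models.

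Glyma03g28870 lay near one of the cytokinin oxidase genes that were left out. Cytokinin oxidases break down cytokinin, a hormone that delays leaf senescence. Glyma03g28870 had 2.09, 1.96 and 1.93 in the watered plants and -2.08, -2.28 and -1.93 in the stressed plants, a difference of -4.09. GmCKX02 (Glyma03g28910), 4 models away, was at -4.62, and Glyma03g28850, 2 models away on the other side, was called lower at -2.87 (standard error 0.32, adjusted p = 0.000159 from limma). None of the models between Glyma03g28870 and either of these was called. Around Glyma01g15930, by contrast, the called models had risen: Glyma01g15910, 2 models away, by 1.86 and Glyma01g16360, 5 models away, by 2.97.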

How the data were processed

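Leaf RNA of 3 well-watered and 3 drought-stressed V6 plants was hybridised to Affymetrix soybean gene arrays, 1 array a plant. The deposited log2 values were made by the authors, who ran gene-level RMA, with its normalization step off, in Affymetrix Expression Console and shifted each array to its 75th percentile in GeneSpring. They are also centred per probe on the median of the 6 arrays and hold no level or signal over background, so no filter on dim probes was possible and precision is given by the standard error. Gene IDs were read from the authors' deposited comparison, whose fold changes, p-values and corrected p-values were not used.

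All 66195 probes were fitted in R 4.3.3 with limma 3.58.1 (lmFit, eBayes), with Benjamini-Hochberg adjustment over all probes. Calls needed a 2-fold change or more with an adjusted p below 0.05, as in the methods. The fit had 4 residual and 5.93 prior degrees of freedom. The median standard error was 0.19, and the number of arrays limits the precision. An exact permutation test of 3 against 3 cannot give a p under 0.1. The code was tested on simulated data. Models were ordered by ID within each chromosome, over 66184 gene IDs.

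The members and lists were chosen with earlier results of these data known. Genes were named by a rule: the 10 largest falls, 3 members inside and 3 probes outside the threshold, members within 10 models of another, the 10 largest adjacent changes, the widest and narrowest 3 in each group, and members on a keyword list. Genes with a description or name were added. Alternatives were the methods' t-test, median centring, quantile normalization, array weights, other thresholds, overlap of the groups allowed and each plant left out in turn. Median centring and quantile normalization were run on the deposited values, already centred per probe, and not on array intensities. The RefSeq gene table matched 0 of the 75 IDs, so no sequence, paralog or promoter was analysed here. R2 leaves were not analysed here.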

Additional observations from a re-analysis of the deposited data

How the results depend on the processing

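The count of probes falling at least 16-fold, 75, went to 150 at a threshold of -3.5 and to 40 at -4.5, by construction. It stayed at 75 with overlap of the groups allowed. It was 72 with each array centred on its median, 99 with quantile normalization (all 75 among them) and 72 to 88 without 1 plant. Of the 75, 65 were kept without each plant in turn. No fall of a member changed direction in 600 alternative values, but without 1 plant the choice of members fixed this in advance. The smallest of these values was -3.56. With quantile normalization, run on the values centred per probe, 33 falls moved by the within-group SD of the member or more. All 33 became larger. For all probes, the methods' t-test gave 2000 probes called lower and 1808 called higher in place of 3401 and 2864. Without 1 plant these were 3086 to 3501 and 2665 to 2937. The adjacent gene models called lower, 15, went to 9 with the t-test, to 42 among the 3 nearest models on each side, which are more models, and to 14 to 16 without 1 plant. The cause of the change with the t-test was not tested. Of the 20 adjacent models called in either direction, 11 were kept by the t-test and 10 by every alternative, and none reversed. The 9 members with 2 or more lower models within 3 places, a count whose alternatives were chosen after seeing the data, went to 5 with the t-test and 8 to 10 without 1 plant. The median log2 fold change of the adjacent models was -0.22 to -0.08 without 1 plant, and the median within-group SD of the members was 0.326 to 0.400 beside 0.379. No paired analysis was possible because the plant numbers differ between the groups. The planned results on paralogs and promoter motifs were not run. With 3 plants a group, values centred per probe and unknown pots, differences in level and small changes of neighbours are beyond these data.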

Other observations

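The 152 probes that were higher by at least 16-fold also leaned to drought-stressed plant 4, which was the highest of the stressed plants for 118 of them (77.6%), beside 32.1% of all probes. Drought-stressed plant 1 was the lowest for 81 (53.3%), beside 34.3% of all probes, and plant 2 for 61 (40.1%), beside 28.9%. The other probes called higher were not set beside these.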
